A study of Mus musculus with 4 samples.

Results

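Expression of 40 genes for ribosome assembly and RNA polymerase I was compared between mouse medulloblastoma cells given the Smoothened inhibitor GDC0449 (vismodegib) and cells given vehicle. The 40 genes were a named list of nucleolar assembly factors, proteins of small nucleolar ribonucleoproteins (snoRNPs), and polymerase I subunits and factors. They were matched by symbol to the Ensembl identifiers of the count table, and all 40 were found among 55573 genes.

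SmoWT cells, named so by the labels, belong to the SHH (Sonic hedgehog) subtype of medulloblastoma and come from spontaneous tumours of C57BL/6 mice with the genotype Ptch1+/-, Trp53-/-. Both groups share that origin, so the vehicle controls also come from Ptch1+/-, Trp53-/- mice. The state of the second Ptch1 allele in the cultured cells was not tested. Neurospheres in Neurobasal medium with B27 received DMSO or 0.1 µM GDC0449 for 24 h, and sequenced libraries were made from their total RNA. There were 2 libraries per group, and nothing in the labels says whether they came from separate cultures, so p-values measure only the spread between these libraries, which may be technical.

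Ribosomes are built in the nucleolus. RNA polymerase I transcribes a long precursor ribosomal RNA, snoRNPs guide its chemical modification, and large sets of assembly factors fold and cut it while ribosomal proteins are added. The small and large subunits are assembled along separate routes and exported to the cytoplasm for their last steps. In many cell types the genes for this machinery are bound by Myc family proteins, which recognise the E-box CACGTG, and in cerebellar granule neuron progenitors Mycn is induced by Hedgehog signalling.

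The libraries held 20113419 and 16329721 reads in genes for DMSO replicates 1 and 2, and 20790030 and 20711391 for GDC0449 replicates 1 and 2. The Hedgehog target Gli1 checked the treatment. It was at 281 and 263 CPM (read counts scaled to the TMM-adjusted depth of each library) with DMSO and at 38.8 and 32.7 CPM with GDC0449, a log2 fold change of -2.93. The feedback genes Hhip (-2.56) and Ptch1 (-0.96) fell as well. Of 8 granule neuron lineage and tumour markers, 6 were expressed highly enough to test, while Barhl1 stayed under 0.51 CPM and Sfrp1 had 0 reads in every library. Of the 6, Atoh1 (log2 fold change 0.81), Neurod1 (0.86), Zic1 (0.24) and Zic2 (0.38) rose and Gli2 (-0.58) and Pax6 (-0.19) fell, and the list summed to 1122 and 1104 CPM with DMSO and 1278 and 1350.3 with GDC0449. Astrocyte markers summed to 112 to 126 CPM, with 1 of 4 tested genes lower and 2 genes at 0 reads. Oligodendrocyte markers summed to 65.9 and 66.3 CPM with DMSO and 83.1 and 84.5 with GDC0449, and 2 of 4 tested genes rose (Cnp 0.76 and Mbp 0.41). The microglial, endothelial and fibroblast lists were each at or under 2.61 CPM in any library, with Tyrobp (-2.09) and Pdgfrb (-1.30) lower and Pecam1 (1.72) and Col3a1 (1.51) higher at levels of at most 1.61 CPM. The part of these markers in the results below was not tested. Reads that the counting assigned to no feature made up 12.3% and 13.2% of the DMSO libraries and 14.3% and 14.4% of the GDC0449 libraries. This class does not separate introns from sequence between genes, and the part of its difference in the results below was not tested.

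The ribosome assembly genes were lower after GDC0449 across most steps of assembly, by a modest amount per gene. A gene is said to have fallen or risen where its edgeR quasi-likelihood test, adjusted over all 15472 tested genes, gave an adjusted p under 0.05. By that rule 29 of the 40 genes fell and 0 rose, beside 18.0% of all tested genes that fell and 18.0% that rose. The list was drawn up with earlier results of these data known, so this count is a description and not independent evidence of direction. The median log2 fold change of the 40 was -0.31, with a range from -0.67 (Rrs1) to 0.11 (Nop10), and the median of all tested genes was 0.007. With the added requirement of a change over 1.5-fold, 2 of the 40 (Rrs1 and Nop14) were lower and 0 were higher, beside 3.80% and 8.62% of all tested genes.

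In 33 of the 40 genes both GDC0449 libraries lay below both DMSO libraries, which held for 32.2% of all tested genes. In 0 of the 40 did both lie above, which held for 33.6% of all tested genes, and in the other 7 the groups overlapped. The 40 genes together took 1.11% of gene reads in each DMSO library, against 0.928% and 0.937% in the GDC0449 libraries. These are shares of a bulk library, so fewer cells of a type and less RNA per cell cannot be told apart, and a change in all mRNA at once would not be seen.

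The count of 29 depended on the libraries and on the measure of expression. It was 15 without DMSO replicate 1 and 13 without DMSO replicate 2, when 4.14% and 4.03% of all tested genes fell. On the deposited FPKM values (fragments per kilobase of gene, scaled to depth) tested as log2(FPKM + 1) it was 10, and with a pseudocount of 0.1 it was 5, beside 5.86% and 4.40% of all genes so tested. Without any 1 library 12 of the 29 still passed (Rrs1, Nop14, Rrp12, Nop2, Pa2g4, Nop56, Rrp9, Wdr12, Npm1, Utp4, Mrto4 and Polr1a), and the other 17 were lost without at least 1 library. The median stayed between -0.33 and -0.31 when any 1 library was left out.

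**Figure D1:**
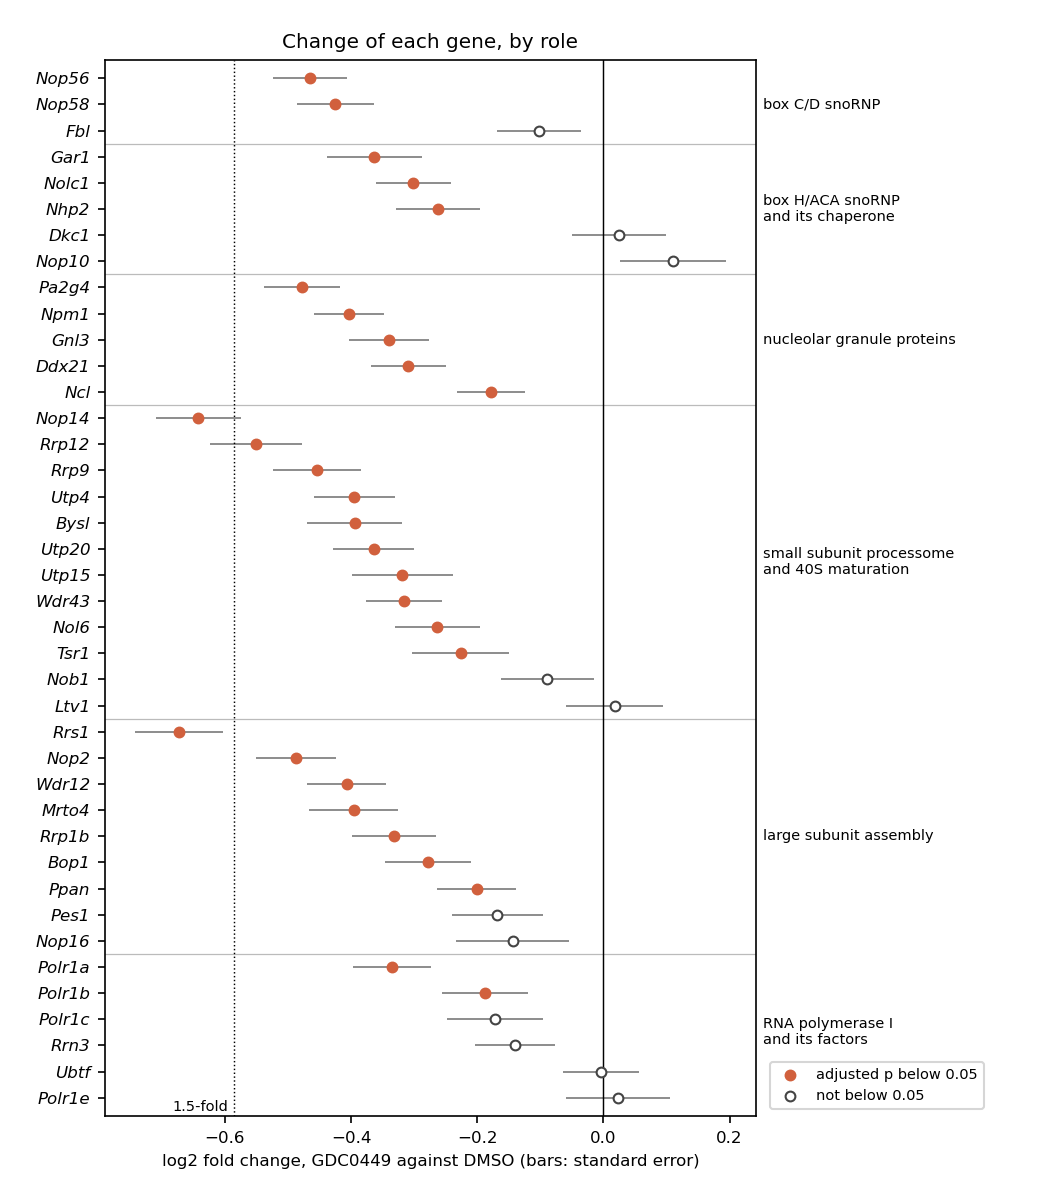
Log2 fold change from counts (x axis, GDC0449 against DMSO) of each of the 40 genes, grouped by role; bars are standard errors, filled points have an adjusted p below 0.05 and the dotted line marks 1.5-fold lower. Rrs1 (-0.67) and Nop14 (-0.64) lie left of the dotted line, and Ltv1, Polr1e, Dkc1 and Nop10 lie right of 0.

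The share of genes that fell was larger at higher levels, so the 40 were set beside genes of like level. Among other tested genes with a mean of 50 to 200 CPM, 30.0% fell and the median log2 fold change was -0.06. Of the 25 ribosome assembly genes in that range 19 fell, with a median of -0.34 (log2). Above 200 CPM, 37.0% of 960 other genes fell with a median of -0.08, against 9 of 11 of these genes with a median of -0.31. From 20 to 50 CPM, 1 of 4 of these genes fell (median -0.06), close to the 21.1% of other genes (median -0.02).

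**Figure D2:**
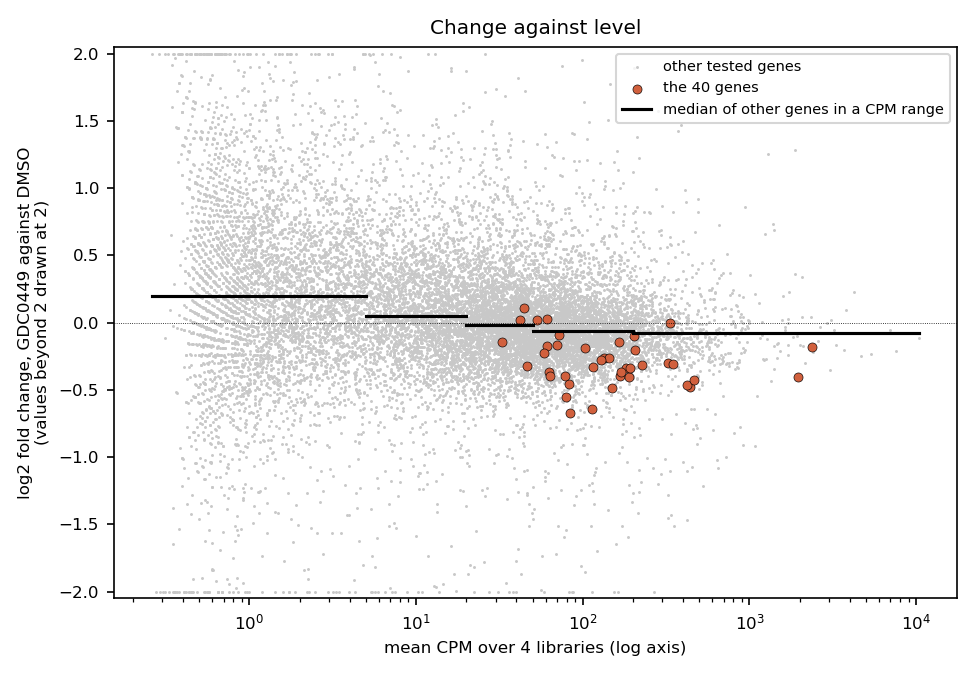
Mean CPM over the 4 libraries (x axis, log scale) against log2 fold change (y axis, values beyond 2 drawn at 2) for the 40 genes and all other tested genes; black bars are medians of the other genes in a CPM range. Most of the 40 lie below the bars, which are at -0.06 from 50 to 200 CPM and -0.08 above 200 CPM.

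Promoter stretches are printed for 3 genes: Nop14 and Nop2, which fell, and Rrn3, an initiation factor of polymerase I, whose GDC0449 libraries lay below its DMSO libraries but which did not pass the test (adjusted p = 0.0789). They come from RefSeq (GRCm38.p6) and cover the 250 bases before the annotated start, 5′ to 3′ on the gene's strand. Capitals mark the E-box CACGTG and, in Nop2, the ETS factor core CCGGAAG. The stretches lie at chr5:34660149-34660398 (minus strand) for Nop14, chr16:13780449-13780698 (plus strand) for Rrn3 and chr6:125131633-125131882 (plus strand) for Nop2.
Nop14: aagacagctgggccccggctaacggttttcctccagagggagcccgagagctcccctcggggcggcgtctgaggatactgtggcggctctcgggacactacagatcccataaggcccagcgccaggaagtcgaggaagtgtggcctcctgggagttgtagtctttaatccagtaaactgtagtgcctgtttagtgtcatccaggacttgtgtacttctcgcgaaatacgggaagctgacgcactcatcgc
Rrn3: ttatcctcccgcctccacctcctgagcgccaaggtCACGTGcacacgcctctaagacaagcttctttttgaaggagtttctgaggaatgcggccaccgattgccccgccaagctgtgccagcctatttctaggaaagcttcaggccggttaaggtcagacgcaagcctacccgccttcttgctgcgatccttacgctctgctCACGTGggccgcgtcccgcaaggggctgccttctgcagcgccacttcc
Nop2: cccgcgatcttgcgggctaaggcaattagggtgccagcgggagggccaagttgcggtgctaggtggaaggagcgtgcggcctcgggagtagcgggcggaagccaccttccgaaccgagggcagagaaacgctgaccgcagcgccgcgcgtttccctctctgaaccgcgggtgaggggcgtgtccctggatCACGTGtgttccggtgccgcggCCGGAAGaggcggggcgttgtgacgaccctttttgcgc
The Rrn3 stretch held 2 E-boxes, 215 and 48 bases before the start. An ETS core on the other strand begins 5 bases before the Rrn3 start and runs past the end of the stretch, so it is not marked. Another begins at transcribed base 19 of Rrn3. Nop2 held 1 E-box 60 bases before the start and 1 ETS core 38 bases before it, and Nop14 held none of the motifs searched.

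A RefSeq window of 250 bases before to 50 bases after the start was found for 34 of the 40 genes, but not for Rrs1, Rrp12, Npm1, Fbl, Nol6 or Bop1. The palindrome CACGTG was in 8 of the 34 (23.5%), against 11.5% of 10647 tested genes with a window and 7.15% of all 32851 windows. It was in 5 of the 24 that fell and in 3 of the 10 that did not pass the test. In 6 of the 8 it lay just after the start, and these sites are shown with up to 9 bases on each side and the E-box in capitals. They lie at chr8:106893646-106893669 (plus strand) for Utp4, chr10:88826765-88826786 (minus) for Utp20, chr17:71616223-71616246 (plus) for Wdr43, chr11:74898095-74898118 (plus) for Tsr1, chr11:3963968-3963991 (plus) for Pes1 and chr10:13193095-13193118 (minus) for Ltv1.
Utp4: gcaagcgcgCACGTGgggccgggg
Utp20: cactaactaCACGTGaggaaaa
Wdr43: ccgggcgaaCACGTGgctgccgcg
Tsr1: cttggtgcaCACGTGgactgcaga
Pes1: taggcagggCACGTGcgggaggaa
Ltv1: ctgtggaccCACGTGtggagctgc
Utp4, Utp20, Wdr43 and Tsr1 fell, while Pes1 and Ltv1 did not pass the test. On either strand, the ETS core CCGGAAG was in 11 of the 34 (32.4%) against 19.5% of tested genes, and the Gli site GACCACCCA was in 0 of the 34 against 0.254%. None of these motifs contains another, and a match is a description of the window and not a binding site.

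Box C/D snoRNPs place methyl groups on ribosomal RNA and share a core of the methyltransferase Fbl with the scaffold proteins Nop56 and Nop58. Nop56 fell from 499 and 483 CPM in DMSO to 357 and 355 in GDC0449, or 491 ± 11.8 against 356 ± 1.18 (SD, n = 2 each), a log2 fold change of -0.46 (SE 0.06, adjusted p = 7.86e-09). Nop58 fell from 514 and 558 to 385 and 413 CPM, a log2 fold change of -0.43 (adjusted p = 1.24e-07), a call lost without DMSO replicate 2. Nop56 shares 8.1% of its exonic bases with snoRNA genes and with Idh3b on the opposite strand. Some of its reads may thus have been left out as ambiguous between genes. In both scaffold proteins every DMSO library lay above every GDC0449 library. Fbl was at 227 and 194 CPM in DMSO and 203 and 190.2 in GDC0449, its groups overlapped, and its log2 fold change was -0.10 with a 95% interval of -0.24 to 0.03 (adjusted p = 0.239). Within libraries, Nop56 reads per Fbl read numbered 2.20 and 2.48 in DMSO and 1.76 and 1.87 in GDC0449, which does not depend on the scaling between libraries. Like the ratios given below, this one restates the fold changes of both genes and is not separate evidence.

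Box H/ACA snoRNPs convert uridine to pseudouridine, with Dkc1 as the enzyme and Nhp2, Nop10 and Gar1 as its partners. Dkc1 was at 61.3 and 59.6 CPM in DMSO and 62.3 and 60.7 in GDC0449, a log2 fold change of 0.02 with a 95% interval of -0.12 to 0.17 (adjusted p = 0.834). The enzyme's groups overlapped, and so did those of Nop10 (log2 fold change 0.11, adjusted p = 0.325). Gar1 fell (log2 fold change -0.36, adjusted p = 0.000113), as did Nhp2 (-0.26, adjusted p = 0.0013) and Nolc1 (-0.30, adjusted p = 6.24e-05), a nucleolar chaperone of snoRNPs. The calls of Gar1 and Nolc1 were lost without either DMSO library, and that of Nhp2 without DMSO replicate 1 or GDC0449 replicate 1. Within libraries, Gar1 reads per Dkc1 read numbered 1.20 and 1.14 in DMSO against 0.909 and 0.88 in GDC0449.

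All 5 nucleolar granule genes fell. Ncl encodes nucleolin, an abundant RNA-binding protein of the nucleolus, and took the most reads of the 40 at 2500.1 and 2528 CPM in DMSO against 2201 and 2243 in GDC0449. Its groups did not overlap, with a log2 fold change of -0.18 (95% interval -0.29 to -0.07, adjusted p = 0.00754), a call lost without any 1 of the 4 libraries. Npm1, which encodes nucleophosmin, fell from 2258 and 2209.8 CPM to 1679 and 1699, a log2 fold change of -0.40 (SE 0.06, adjusted p = 3.45e-08). Npm1 has processed copies elsewhere in the genome, and reads that aligned to several places, 10.4% to 10.7% of a library's tally, were not counted. Npm1 reads per Ncl read numbered 0.903 and 0.874 in DMSO and 0.763 and 0.757 in GDC0449. Pa2g4, which encodes the growth-regulated RNA-binding protein Ebp1, fell from 527 and 494 to 377 and 356 CPM (log2 fold change -0.48, adjusted p = 6.01e-09). The helicase gene Ddx21 (log2 fold change -0.31) and the nucleostemin gene Gnl3 (-0.34) lay between Ncl and Npm1 in size of change. Ddx21 lost its call without DMSO replicate 2, and Gnl3 without either DMSO library. On both FPKM scales the change of Gnl3 turned sign (0.076 and 0.077).

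Of 12 genes for the small subunit processome and later small subunit maturation, 10 fell, with a median log2 fold change of -0.34 over the 12. Nop14 (ENSMUSG00000036693, chr5:34638536-34660148 in GRCm38), a processome protein, fell from 133 and 144 CPM in DMSO to 87.0 and 90.6 in GDC0449. That is 139 ± 7.68 against 88.8 ± 2.57 CPM (SD, n = 2 each) and 1.56-fold lower, with a log2 fold change of -0.64 (95% interval -0.78 to -0.51, adjusted p = 4.06e-11). An antisense gene covers 5.3% of its exonic bases, and the strand setting of the counting is not given in the sources used here. Rrp12, which acts in subunit export, fell from 101 and 89.1 CPM to 66.0 and 63.6 (log2 fold change -0.55, adjusted p = 1.92e-08). Rrp9, a protein of the U3 snoRNP, fell from 97.8 and 93.1 CPM to 67.8 and 71.7 (log2 fold change -0.45, adjusted p = 7.73e-07). Utp4, part of the subcomplex that first joins the precursor RNA, fell from 199 and 180.5 CPM to 144 in both GDC0449 libraries (log2 fold change -0.40, adjusted p = 2.05e-06). In all 4 genes the DMSO libraries lay above the GDC0449 libraries.

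The other small subunit genes that fell (Nol6, Utp15, Utp20, Wdr43, Tsr1 and Bysl) had log2 fold changes between -0.39 and -0.23. Without DMSO replicate 2 all 6 lost their calls, and without DMSO replicate 1 all but Utp20 did, while Nol6 and Tsr1 also lost theirs without GDC0449 replicate 2. Tsr1 shares 32.3% of its exonic bases with Srr on the opposite strand and Bysl shares 9.4% with Ccnd3. Depending on the strand setting, reads over the shared bases may have been left out as ambiguous between genes. The 2 that did not pass act late, in the cytoplasmic stage: the endonuclease Nob1 (log2 fold change -0.09, 95% interval -0.24 to 0.06) and the export and release factor Ltv1 (0.02, interval -0.14 to 0.17). Nop14 reads per Ltv1 read numbered 2.58 and 2.67 in DMSO and 1.61 and 1.71 in GDC0449. Not all late-acting genes were without a change, since Tsr1, Bysl and Rrp12 also act late.

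Of 9 genes for large subunit assembly 7 fell, with a median log2 fold change of -0.33 over the 9. Rrs1 (ENSMUSG00000061024, chr1:9545408-9547455 in GRCm38), which helps bring the small ribosomal RNA of the large subunit into the assembling particle, fell from 104 and 101 CPM to 63.9 and 65.1. That is 103 ± 2.10 against 64.5 ± 0.849 CPM (SD, n = 2 each) and 1.59-fold lower, with a log2 fold change of -0.67 (95% interval -0.81 to -0.53, adjusted p = 2.87e-11). Its interval overlapped that of Nop14, and the order of the pair turned without DMSO replicate 1 (Nop14 -0.70, Rrs1 -0.65) and on both FPKM scales. Nop2, a methyltransferase of large subunit RNA, fell from 179 and 168 to 125 and 123 CPM (log2 fold change -0.49, adjusted p = 2.1e-08). Mrto4, which holds the place of a stalk protein until late in assembly, fell from 89.0 and 88.9 to 66.0 and 69.2 CPM (log2 fold change -0.40, adjusted p = 1.09e-05). In these 3 genes both GDC0449 libraries lay well below both DMSO libraries.

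Pes1, Bop1 and Wdr12 encode a single complex of the large subunit precursor. Wdr12 fell from 212 and 222 CPM to 167 and 160.5 (log2 fold change -0.41, adjusted p = 6.23e-07), and Bop1 fell (-0.28, adjusted p = 0.000996). Pes1 had a log2 fold change of -0.17 (95% interval -0.31 to -0.02, adjusted p = 0.0626) and did not pass. The other large subunit genes were Rrp1b (-0.33, adjusted p = 6.9e-05) and Ppan (-0.20, adjusted p = 0.00892), which fell, and Nop16 (-0.14, adjusted p = 0.217), which did not pass. Bop1 and Rrp1b lost their calls without either DMSO library, Bop1 also without GDC0449 replicate 2, and Ppan without any 1 of the 4. In all 9 large subunit genes both GDC0449 libraries were below both DMSO libraries.

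Of 6 genes for RNA polymerase I and its factors 2 fell, with a median log2 fold change of -0.16 over the 6. That is 33.3%, beside 18.0% of all tested genes. Among other genes 21.1% fell from 20 to 50 CPM, 30.0% from 50 to 200 CPM and 37.0% above 200 CPM. These ranges hold the 6 genes, so their count lies near the share of genes of like level. Polr1a, the largest subunit, fell from 205 and 199 CPM in DMSO to 159.8 and 161 in GDC0449 (log2 fold change -0.33, SE 0.06, adjusted p = 2.3e-05). Polr1b, the other subunit of the active site, fell from 111 and 108 to 99.3 and 93.1 CPM (log2 fold change -0.19, adjusted p = 0.0255), a call lost in 10 of 13 alternatives, among them leaving out any 1 library, with adjusted p up to 0.328. The groups of both subunits did not overlap. Polr1c, shared with polymerase III, had a log2 fold change of -0.17 (adjusted p = 0.0718), and Polr1e one of 0.02 (adjusted p = 0.864).

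Ubtf and Rrn3, which help polymerase I to start on ribosomal DNA, did not pass the test. Ubtf, which encodes the upstream binding factor, was at 335 and 329 CPM in DMSO and 332 and 330.0 in GDC0449, with overlapping groups and a 95% interval of the log2 fold change from -0.12 to 0.12 (adjusted p = 0.97). Rrn3, whose promoter stretch is printed above, had a log2 fold change of -0.14 (95% interval -0.27 to -0.01, adjusted p = 0.0789). Polr1a reads per Ubtf read numbered 0.613 and 0.604 in DMSO and 0.481 and 0.488 in GDC0449. Whether the polymerase genes differed from the assembly genes was not tested.

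On the deposited FPKM values, Npm1 was the highest of the 40 genes. Ncl took more reads than Npm1, but it has 10188 annotated exonic bases against 2665. The order by FPKM therefore depends on the gene length used, which the sources used here do not give. Npm1 had a mean level of 975 FPKM in DMSO and 746 in GDC0449. Ncl (214 FPKM) and Nop56 (193 FPKM) followed in DMSO and their libraries overlapped, then came Pa2g4 (169 FPKM) and Fbl (108 FPKM), while Polr1e (9.26 FPKM) and Utp15 (9.01 FPKM) were lowest. Of the 39 neighbouring pairs in this order, 25 overlapped in the DMSO libraries. Across the 40 genes, the log2 fold change had a Spearman correlation of -0.23 with the DMSO level per length and of -0.02 with exonic bases, both as a description over genes that share the same libraries.

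**Figure D3:**
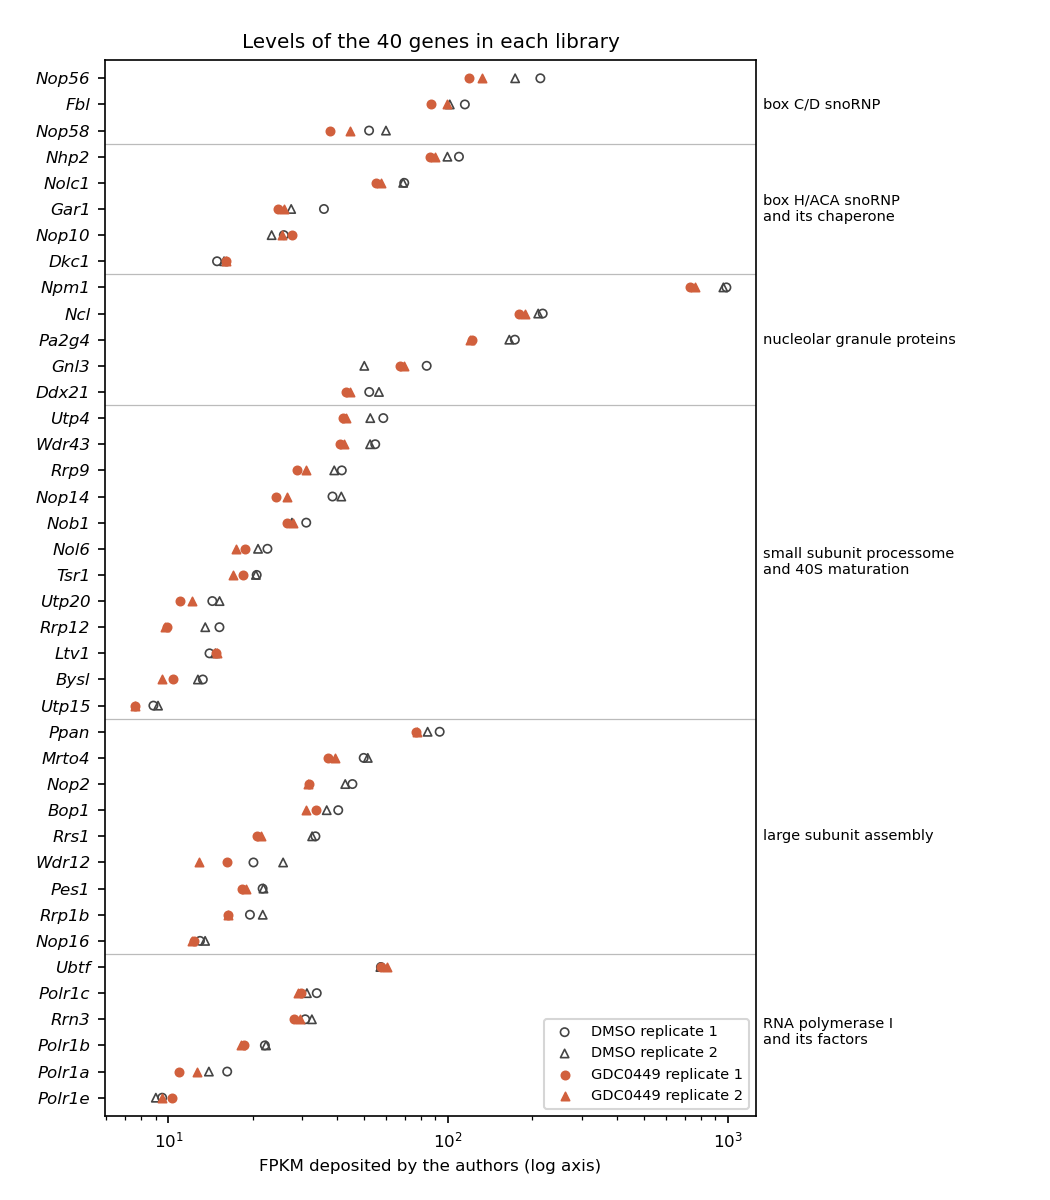
FPKM deposited by the authors (x axis, log scale) of each of the 40 genes in the 2 DMSO libraries (open symbols) and the 2 GDC0449 libraries (filled symbols), grouped by role. Npm1 stands far right of the rest at 975 FPKM in DMSO, and the DMSO replicates of Gnl3 lie apart at 83.7 and 50.1 FPKM.

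Other genes of the pathway, from lists of 132 genes of which 131 were tested, gave 81 that fell and 0 that rose, with a median log2 fold change of -0.23. Among other genes of the processome and small subunit maturation 29 of 45 fell. They were led by the pre-ribosomal RNA processing factor Esf1 (-0.98, adjusted p = 5.08e-16) and Utp11 (-0.55), and the highest were Ddx47 (0.08) and Aatf (0.02). Among other large subunit genes 34 of 46 fell, led by Rpf2 (-0.51) and Gtpbp4 (-0.50), with Ddx54 (0.06) and Efl1 (0.01) highest. Esf1 passed the 1.5-fold threshold under every alternative run.

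Among genes listed here under snoRNP assembly 7 of 11 fell, led by Tcof1 (-0.62, adjusted p = 1.57e-11), the nucleolar protein treacle, and Znhit6 (-0.50), with Shq1 (0.03) and Coil (-0.06) highest. Tcof1 was placed in this list alone and not with the polymerase I genes, so it does not enter their counts. Of 13 tested exosome genes, whose complex trims ribosomal RNA precursors, 8 fell, led by the nuclease gene Dis3 (-0.63, adjusted p = 6.91e-11) and Exosc3 (-0.52), with C1d (0.08) and Exosc4 (-0.07) highest. Among other polymerase I genes 3 of 16 fell with a median of -0.004, a share near the 18.0% of all tested genes, led by Taf1d (-0.40) and Polr1g (-0.39), and Taf1c (0.13) and Polr2l (0.09) were highest. The 16 include Polr2e, Polr2f, Polr2h, Polr2k and Polr2l, subunits shared with other polymerases, so the list is not specific to polymerase I. Tcof1 was under 1.5-fold without DMSO replicate 1 (-0.57), as was Dis3 without DMSO replicate 2 (-0.56) and on FPKM values (-0.39 and -0.41, the latter with adjusted p = 0.0522).

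For comparison, 4 of 22 polymerase III genes fell and 1 rose, with a median of -0.13, also near the share of all tested genes. The lowest after Gtf3a was Polr3d (-0.30), and the highest were Gtf3c5 (0.21) and Polr3k (0.16). Of 7 subunits of polymerase II alone 2 fell (Polr2g -0.26 and Polr2c -0.22), with Polr2b (0.11) and Polr2j (0.02) highest. The only polymerase III gene past 1.5-fold, Gtf3a (-0.63), encodes a factor for the small ribosomal RNA genes and ranged from -0.82 to -0.27 over the alternatives, with adjusted p up to 0.191. Of 79 cytosolic ribosomal protein genes, 46 fell and 1 rose, with a median of -0.20 (log2). Rpl13 (-0.45, with its GDC0449 libraries far apart at 387 and 735 CPM) and Rpl23 (-0.44) were lowest, and the highest were Rpl24 (0.68, adjusted p = 0.249, at or under 1.0 CPM) and Rps26 (0.17), which rose. The ribosomal protein genes took 4.29% and 4.03% of gene reads in DMSO and 3.79% and 3.71% in GDC0449. Reads that aligned to several places, 10.4% to 10.7% of a library's tally, were not counted, so the levels of these genes may be too low. Differences between these lists were not tested.

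**Figure D4:**
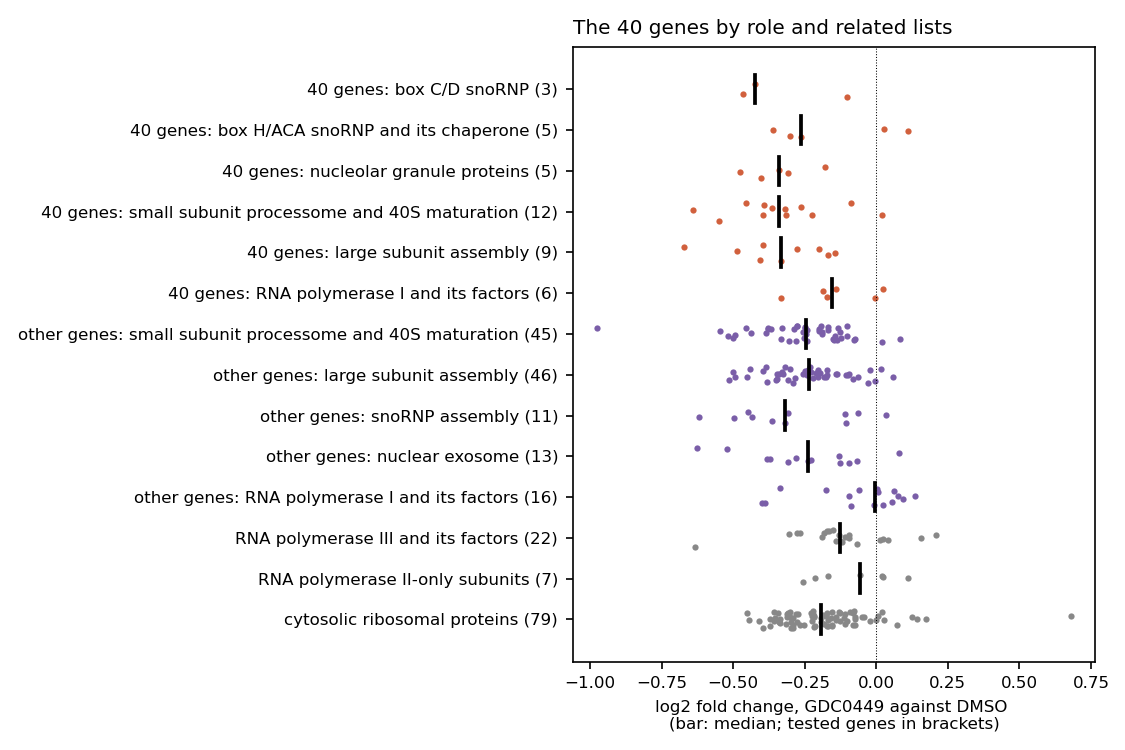
Log2 fold change (x axis) of each tested gene in the roles of the 40 genes, the other pathway lists and 3 lists for comparison; each point is a gene, placed at random height within its row, and the black bar is the median. Points of the assembly lists lie mostly left of 0, with Esf1 farthest left at -0.98, and the median of the other polymerase I genes lies at -0.004.

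The Myc family did not move as one. Of 10 tested genes, 1 fell and 5 rose. Mycn fell from 1335 and 1283 CPM to 885 and 913 (log2 fold change -0.54, adjusted p = 3.37e-11). Myc rose from 18.7 and 19.2 to 31.3 and 26.8 CPM (log2 fold change 0.62), with an adjusted p of 0.0845 and 0.0737 without DMSO replicate 1 or 2. Mycl rose from 58.9 and 55.1 to 131 and 119 CPM (log2 fold change 1.13), and Mxd4, whose product opposes Myc, also rose (0.84). Of 10 genes of cycling cells 6 fell and 1 rose, beside 18.0% of all tested genes each way. Their median log2 fold change was -0.17, with Ccnb1 at 0.00 and Ccne1 at 0.26. Their summed level was 3657 and 3524 CPM in DMSO and 3197 and 3207 in GDC0449. The part of the cycling genes in the change of the ribosome genes was not tested.

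Introns of ribosome assembly genes can carry snoRNA genes. By GENCODE, 8 of the 40 (20%) contained 23 snoRNA genes on the same strand, against 232 of 12597 tested protein-coding genes (1.84%). The hosts were Nop56 with 5, Nop58 with 4, Ncl, Gnl3 and Wdr43 with 3 each, Tsr1 and Ppan with 2 each and Dkc1 with 1. Of the 8 hosts 7 fell and Dkc1 did not pass the test, beside 29 of all 40 genes and 18.0% of all tested genes that fell. Some of the snoRNA genes overlapped annotated exons of their host. In Nop56 1 of the 5 lay clear of exons and in Gnl3 and Ppan 0 did, while all 3 in Wdr43 did.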

How the data were processed

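RNA-seq was compared in 2 DMSO and 2 GDC0449 libraries. Per the submitters' processing notes, the authors used Trim Galore, HISAT2 with mm10, HTSeq 0.11.1 for the deposited whole-number counts, and DESeq2 1.26.0. The FPKM values were also deposited by the authors, per the labels relative to gene length and depth. The sources used here do not give the annotation release, the FPKM tool or the strand setting. Entries that name no gene (unassigned read classes) were left out. Reads assigned to no feature made up 12.3% to 14.4% of a library's tally and ambiguous reads 4.73% to 4.91%.

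Symbols and positions came from GENCODE M21 (GRCm38), which matched 55480 of 55573 identifiers. The deposited counts entered edgeR 4.0.16 under R 4.3.3 (filterByExpr, TMM, quasi-likelihood, group as the only term), with Benjamini-Hochberg adjustment over 15472 genes. Thresholds were an adjusted p of 0.05, alone or with 1.5-fold. CPM were computed from counts with TMM factors (0.978 to 1.02), and the biological coefficient of variation was 4.82%. FPKM served for levels between genes and, as log2(FPKM + 1) with limma 3.58.1 on genes with FPKM over 1, as an alternative. DESeq2 1.42.0, voom, other scalings, other filters, a replicate block and leaving out each library were the other alternatives. Replicates of a group differed by more than counting noise (chi-square per gene 3.95 and 3.17). The script was tested on simulated data.

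All members are named. Library values are printed for members that passed the test and were among the 12 largest changes, and for Ncl, Npm1, Fbl, Dkc1, Polr1a, Polr1b and Ubtf. Of the other pathway and comparison lists, genes past both thresholds and the 2 largest changes each way are named. The members and lists were chosen with earlier results of these data known.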

Additional observations from a re-analysis of the deposited data

How the results depend on the processing

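Across 13 alternatives, Nop14 and Rrs1 stayed past both thresholds, and 0 of the 40 genes rose in any. The number that fell (29) is set here beside the share of all genes that fell under the same setting. It was 29 with relative log expression scaling (18.3%) or voom (18.1%), 28 with upper-quartile scaling (14.8%) or a 5 CPM filter (20.8%), 27 with DESeq2 (7.09%) and 23 with no filter (5.68%). It was 15 and 13 without DMSO replicate 1 or 2 (4.14% and 4.03%), 25 and 23 without GDC0449 replicate 1 or 2 (10.2% and 11.7%), 10 on log2(FPKM + 1) (5.86%) and 5 on log2(FPKM + 0.1) (4.40%). The number also past 1.5-fold was 3 instead of 2 without DMSO replicate 2 (Rrp12 added) and on log2(FPKM + 1) (Nop56 added), a range of 2 to 3 over left-out libraries. The median log2 fold change moved to -0.279 with upper-quartile scaling, -0.285 with the 5 CPM filter, -0.275 and -0.282 on the FPKM scales, and ranged from -0.331 to -0.31 over left-out libraries. Same-numbered libraries share a number that no label ties to a culture, and their deviations had a correlation of 0.0351. With the replicate block 33 genes fell (22.7% of all), with Rrn3, Pes1, Polr1c and Fbl added (adjusted p = 0.00297, 0.00646, 0.0099 and 0.0341).

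Signs turned for 6 genes, 5 of them with changes near 0. Ubtf was 0.03 with upper-quartile scaling, 0.024 with the 5 CPM filter, 0.04 on both FPKM scales, and -0.024 to 0.006 over left-out libraries. Over left-out libraries Fbl ranged from -0.218 to 0.013, Dkc1 from -0.004 to 0.044, Polr1e from -0.035 to 0.075 and Ltv1 from -0.017 to 0.04. Gnl3 was 0.076 and 0.077 on the FPKM scales. The cause was not tested. Where 1 library of a group is left out, the lone library is assumed to vary like the other group.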

Other observations

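The deposited FPKM and the counts differed for some genes, among them Gnl3. Its FPKM was 83.7 and 50.1 with DMSO and 67.5 and 69.3 with GDC0449, while its CPM was 211 and 216 against 163 and 175. The FPKM of DMSO replicates 1 and 2 were thus far apart where their CPM were close. With a single gene length for all libraries they would have stayed in step, so the FPKM are not a plain rescaling of the counts. The length used in each library is not given in the sources used here. Wdr12 had a log2 fold change of -0.66 from mean FPKM and -0.407 from counts, and Nop56 had -0.63 and -0.465. Over the 40 genes, log2 fold changes from mean FPKM and from counts had a Pearson correlation of 0.91, and 34 of 40 were below 0 by FPKM.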
